A study of Mus musculus with 50 samples.

Results

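Monocytes and neutrophils of the blood were followed here through 10 marker genes, Ly6c2, Ccr2, S100a8, S100a9, Retnlg, Ngp, Camp, Ltf, Cd177 and Plac8, which were chosen by symbol. All 10 were found among the 53700 genes of the count tables. The tables held 1 library for each of 50 male C57BL/6J mice, made from poly-A RNA of hippocampal microglia that had been sorted as viable CD45int CD11b+ cells after perfusion. The mice had been reared under control conditions (CTR) or early-life stress (ELS, a cage with little bedding and nesting material from P2 to P9) and were killed at postnatal day 9 or 200. The adults received an injection of PBS or of lipopolysaccharide (LPS), a component of the bacterial cell wall, 3 h before. At P9 there were 12 control mice (P9-CTR) and 13 stressed mice (P9-ELS). Of the control adults 7 were given PBS (P200-CTR-PBS) and 7 LPS at 1 mg/kg (P200-CTR-LPS), and of the stressed adults 6 were given PBS (P200-ELS-PBS) and 5 LPS (P200-ELS-LPS). Single mice are named by their labels, as in P200_17.3_ELS_LPS.

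Monocytes and neutrophils are made in the bone marrow and reach tissue through the blood, and because they carry CD11b, they can be caught beside microglia in a sort on that marker. Ly6c2 encodes the Ly-6C antigen of classical monocytes, and Ccr2 the chemokine receptor through which these monocytes follow CCL2 out of the marrow and into inflamed tissue. S100a8 and S100a9 encode the paired subunits of calprotectin, a calcium-binding protein that fills the cytosol of neutrophils and is also made by monocytes. Ngp, Camp (cathelicidin) and Ltf (lactoferrin) encode proteins of the secondary granules, which are made while neutrophils mature in the marrow. Retnlg, a resistin-like secreted protein, and Cd177, a surface glycoprotein, mark mature neutrophils, and Plac8 encodes a small cysteine-rich protein of monocytes and other leukocytes.

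In GRCm39 the pair S100a8 (chr3:90567118-90578128) and S100a9 (chr3:90599931-90603071) lay 21.8 kb apart. Camp (chr9:109676442-109678685), Ngp (chr9:110248815-110252086) and Ltf (chr9:110848339-110871835) followed each other on chromosome 9 with gaps of 570.1 kb and 596.3 kb, and Ccr2 (chr9:123901982-123913594) lay further along the same chromosome. The others were Plac8 (chr5:100701591-100720111), Cd177 (chr7:24443408-24459747), Ly6c2 (chr15:74980003-74988467) and Retnlg (chr16:48692547-48694862). All 10 were annotated as protein-coding. Of the 100-base windows in the exons of Ly6c2, 18.65% were also found in its neighbour Ly6c1, so that counts of these 2 genes are uncertain against each other. The share was 1.72% for Cd177, which shared windows with Lypd10 and Lypd11, 0.79% for Ccr2 and 0.06% for Plac8. No window of the other 6 markers was found in another gene.

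The 300 bases before the transcription start were searched on both strands for TTGCNNAA, a form of the site of the C/EBP factors that are known to act on granule genes, and for AGGAAGT, a form of the site of the myeloid factor PU.1. TTGCNNAA was found before Ccr2, S100a9, Retnlg, Ngp, Camp and Ltf, which is 6 of 10 markers, and in 11.4% of the promoters of 21626 protein-coding genes. AGGAAGT was found before Ly6c2 and S100a8, against 8.2% of these promoters, and the windows of Cd177 and Plac8 held neither. A match describes these letters and says nothing about binding. The windows of the 3 secondary granule genes and of S100a9, which had counts in few libraries, are shown with that of Plac8, which had counts in nearly all. The first base of each match is at -77 for Ngp (chr9:110248515-110248814, plus strand), at -105 for Camp (chr9:109678686-109678985, minus strand), at -54 for Ltf (chr9:110848039-110848338, plus strand) and at -193 for S100a9 (chr3:90603072-90603371, minus strand), counted back from -1 at the base before the start. The window of Plac8 was chr5:100720112-100720411 on the minus strand. Capitals mark the TTGCNNAA matches in these GRCm39 sequences, which are written 5′ to 3′.
Ngp: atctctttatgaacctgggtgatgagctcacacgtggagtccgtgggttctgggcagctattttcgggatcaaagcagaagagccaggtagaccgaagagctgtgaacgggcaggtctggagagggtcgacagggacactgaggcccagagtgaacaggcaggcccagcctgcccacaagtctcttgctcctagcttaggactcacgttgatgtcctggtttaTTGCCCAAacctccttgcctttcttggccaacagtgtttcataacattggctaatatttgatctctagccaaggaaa
Camp: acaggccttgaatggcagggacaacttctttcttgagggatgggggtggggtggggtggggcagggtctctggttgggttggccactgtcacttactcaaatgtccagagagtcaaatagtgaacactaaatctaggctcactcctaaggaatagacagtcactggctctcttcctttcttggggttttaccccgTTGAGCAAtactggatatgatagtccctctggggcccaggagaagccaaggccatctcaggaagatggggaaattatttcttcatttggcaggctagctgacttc
Ltf: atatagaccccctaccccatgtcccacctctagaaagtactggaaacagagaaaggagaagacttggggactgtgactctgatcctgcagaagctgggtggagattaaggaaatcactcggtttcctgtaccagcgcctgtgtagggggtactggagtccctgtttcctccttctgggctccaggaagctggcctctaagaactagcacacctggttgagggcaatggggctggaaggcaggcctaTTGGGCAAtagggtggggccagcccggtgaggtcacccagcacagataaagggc
S100a9: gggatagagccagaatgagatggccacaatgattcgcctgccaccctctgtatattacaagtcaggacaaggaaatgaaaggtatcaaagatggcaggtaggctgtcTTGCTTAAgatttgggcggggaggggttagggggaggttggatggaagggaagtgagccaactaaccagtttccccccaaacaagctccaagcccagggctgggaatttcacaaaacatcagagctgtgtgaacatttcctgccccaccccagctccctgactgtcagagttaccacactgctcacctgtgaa
Plac8: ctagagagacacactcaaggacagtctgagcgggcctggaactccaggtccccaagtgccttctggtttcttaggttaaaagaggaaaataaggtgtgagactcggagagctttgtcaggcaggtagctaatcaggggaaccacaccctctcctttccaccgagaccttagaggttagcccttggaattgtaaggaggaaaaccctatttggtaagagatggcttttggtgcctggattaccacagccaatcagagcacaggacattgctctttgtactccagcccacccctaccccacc

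The libraries held between 5152838 and 42231258 counts, with a median of 19960409.5, and between 12482 and 21100 genes with a count. P9_19.3_ELS (12482 genes), P200_1.1_CTR_PBS (12854 genes) and P9_19.2_ELS (15731 genes) had the fewest. The summed level of 10 microglia genes was between 39286 and 91084 CPM (counts scaled to the TMM-adjusted library size) in all 50 libraries. The summed level of 10 border-associated macrophage genes was between 487 and 934 CPM at P9 and at most 11.19 CPM at P200. Mrc1 made up most of it, with a mean of 711 CPM in each P9 group against 742 CPM for the list. Only the P200 brains had passed through a Percoll step to remove myelin, so that this step and age cannot be told apart.

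Of the 10 markers, 9 had a count in some library, and only Ccr2 and Plac8 reached 1 CPM in more than 2 mice, the level at which genes were tested. Ccr2 had 2904 counts over 46 mice and Plac8 had 2288 counts over 48 mice. The other 8 markers had 438 counts in all 50 libraries together. Among them S100a8 had 158 counts in 11 mice, Ngp 91 in 4, S100a9 75 in 4, Camp 58 in 13, Cd177 29 in 4, Ltf 16 in 2 and Ly6c2 11 in 2. Retnlg had 0 counts, which allows a level of up to 0.0028 CPM over the 50 libraries, where such a limit (3 counts) covers counting error only. Ly6g, the surface antigen by which mouse neutrophils are usually sorted, and the neutrophil genes Stfa2, Stfa2l1 and Stfa3 were also listed at 0 in all mice. In these bulk libraries, fewer cells of a type and less RNA per cell cannot be told apart.

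**Figure D1:**
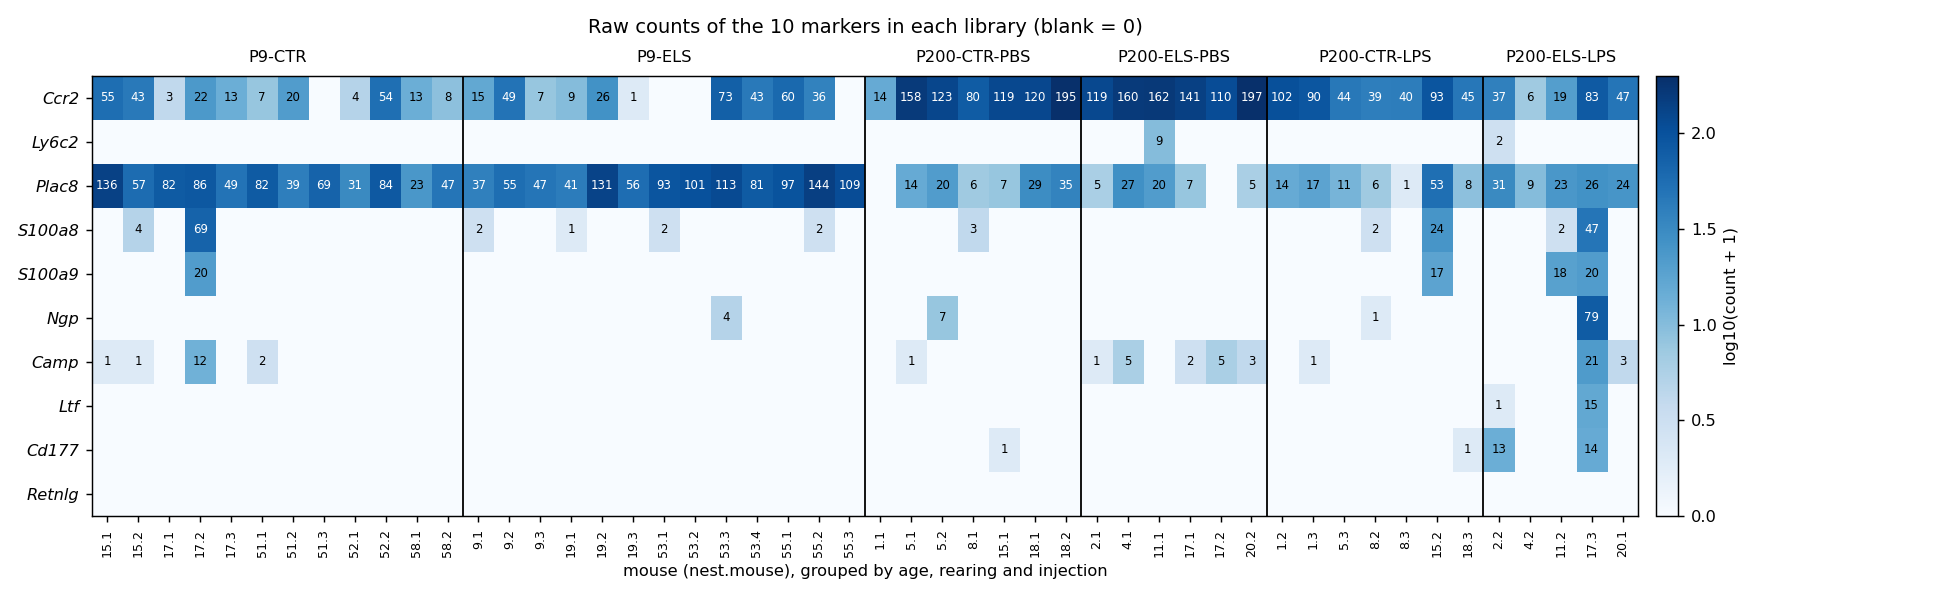
Raw counts of the 10 markers (rows) in the 50 libraries (columns, grouped by age, rearing and injection), with the colour on a log10(count + 1) scale and blank cells for 0. Ccr2 and Plac8 fill their rows with counts in 46 and 48 libraries, and the counts of the other 8 markers gather in a few columns, with 196 in P200_17.3_ELS_LPS.

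The counts of the 8 sparse markers came from a few mice. Of the 50 libraries 23 had 0 counts of them, 16 had between 1 and 3, and 11 had more than 3. The 2 highest libraries held 67.8% of the 438 counts and the 6 highest held 87.4%. These 6 libraries were of usual depth, with 15338010 to 25728633 counts, and the highest of the other 44 libraries had 7 counts.

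P200_17.3_ELS_LPS had the most, 196, and held 6 of the 8 sparse markers, with 79 counts of Ngp, 47 of S100a8, 21 of Camp, 20 of S100a9, 15 of Ltf and 14 of Cd177. It thus held 86.8% of all Ngp counts and 93.8% of all Ltf counts. No gene of a list of primary granule proteins, which are made at the promyelocyte stage, had a count there or in any other mouse of its group. Fpr2, a receptor for formylated peptides, had 14 counts in P200_17.3_ELS_LPS against at most 4 in the other mice of its group. The level of Fpr2 was higher in P200_15.2_CTR_LPS, with 23 counts against 0 in the other mice of that group. Within its group, most other neutrophil genes did not stand out in P200_17.3_ELS_LPS: 3 of 11 mature neutrophil genes and 1 of 8 secondary and tertiary granule genes with any count were above the other mice. Among all 50 libraries its summed level ranked 3 for each of these lists, while 0 genes of either list were at their highest level there. Hp (haptoglobin, also a granule protein) had 19 counts there against 208 in another mouse of the group, and Mmp8 (a granule collagenase) had 0 against 34.

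P9_17.2_CTR had 101 counts, 69 of S100a8, 20 of S100a9 and 12 of Camp, and none of Ngp, Ltf or Cd177. It differed from the adult library in its primary granule genes. Mpo (myeloperoxidase) had 230 counts, Elane (neutrophil elastase) 57, Prtn3 (proteinase 3) 31 and Ms4a3 6, each the highest level of the 50 libraries. The summed level of the 6 genes of this list was 11.5 CPM in P9_17.2_CTR and at most 0.607 CPM in the other 11 mice of its group. Among classical monocyte genes Mgst1 (83 counts) was also at its highest level there, while Vcan (177 counts, 6.30 CPM) was matched by another mouse of the group (6.28 CPM).

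The next libraries held between 1 and 3 of the sparse markers each. P200_15.2_CTR_LPS had 24 counts of S100a8 and 17 of S100a9, and P200_11.2_ELS_LPS had 18 of S100a9 and 2 of S100a8, so that the calprotectin pair appeared without Ngp, Camp, Ltf or Cd177. P200_2.2_ELS_LPS had 13 counts of Cd177, 2 of Ly6c2 and 1 of Ltf. In this library Hp had 208 counts, the highest level of the 50. P200_11.1_ELS_PBS had 9 counts of Ly6c2 and of no other sparse marker, which is 81.8% of all counts of this gene. Ly6c1, which shares sequence with it, had 61 counts in 7 of 12 P9-CTR mice and 44 in 3 of 13 P9-ELS mice and was listed at 0 in all 25 P200 mice, P200_11.1_ELS_PBS included.

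**Figure D2:**
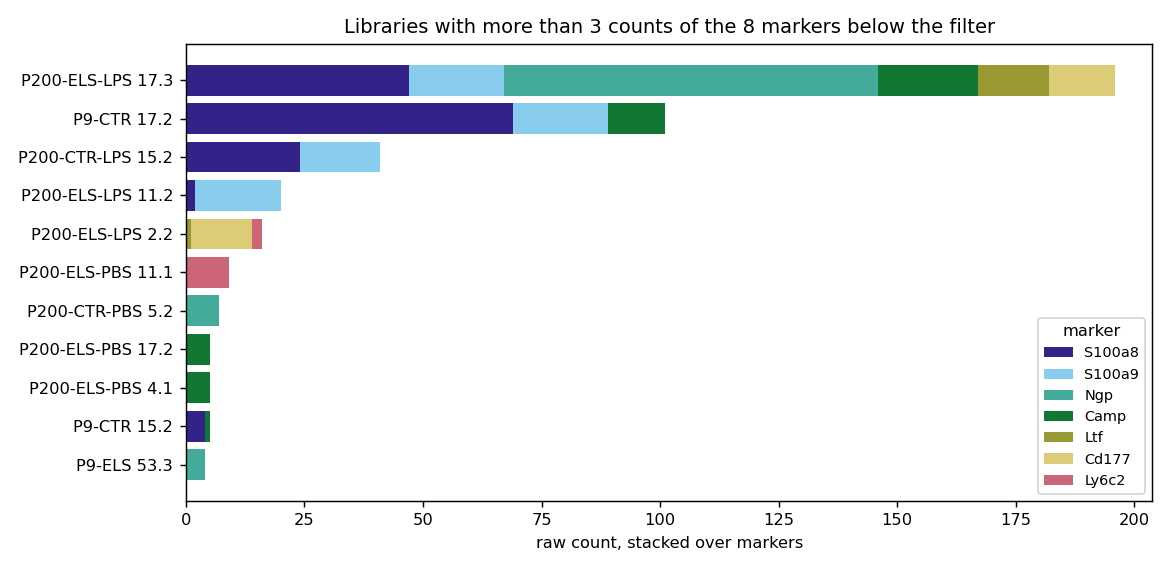
Raw counts of the sparse markers (horizontal axis, stacked by marker; Retnlg had none) in the 11 libraries that held more than 3 of them. P200_17.3_ELS_LPS with 196 counts and P9_17.2_CTR with 101 stand above the rest, and the markers that make up each bar differ between libraries.

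Per group, the summed level of the 8 markers was 0.326 ± 1.03 CPM (SD, n = 12) in P9-CTR, 0.0358 ± 0.0484 (n = 13) in P9-ELS, 0.0852 ± 0.112 (n = 7) in P200-CTR-PBS and 0.192 ± 0.153 (n = 6) in P200-ELS-PBS. It was 0.302 ± 0.683 (n = 7) in P200-CTR-LPS and 2.68 ± 4.55 (n = 5) in P200-ELS-LPS. In every group but P200-ELS-PBS the SD was above the mean. Without the 6 libraries the means were between 0.0284 and 0.138 CPM in all 6 groups, with 2 of 5 mice left in P200-ELS-LPS. These libraries were chosen as the highest in counts of the same markers, so low means without them follow from the choice. Camp was the sparse marker with the most evenly spread counts. In P200-ELS-PBS it had 1, 5, 0, 2, 5 and 3 counts in the 6 mice, against 1 count in 1 of 7 P200-CTR-PBS mice. The exact two-sided permutation test of log2 CPM gave an unadjusted p of 0.0175 for this difference, and it was 1 of 8 under 0.05 among 63 such tests of 9 markers in 7 comparisons. At P9 the order was the other way, with counts in 4 of 12 CTR mice and 0 of 13 ELS mice.

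The sparse markers entered the edgeR quasi-likelihood test only when no filter on low counts was used. Between LPS and PBS in ELS mice, 3 of 9 markers were then called (adjusted p under 0.05 by Benjamini-Hochberg, with a log2 fold change of more than 1 in size), against 3.36% of 36192 genes. These were Ngp (adjusted p = 0.00942), Cd177 (0.0254) and S100a8 (0.0425), which were listed at 0 in all 6 PBS mice, and 0 were called without P200_17.3_ELS_LPS. From P9 to P200 the same fit called Ngp in CTR mice (adjusted p = 0.0285), beside Ccr2 and Plac8, against 17.0% of genes, and no longer without P200_5.2_CTR_PBS, which held its 7 counts. In ELS mice it called Ly6c2 (0.0106) and Camp (0.00101) beside them, against 16.5% of genes, and without P200_11.1_ELS_PBS, which held the Ly6c2 counts, it called 3 in place of 4.

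Ccr2 and Plac8, the markers with counts throughout, were opposite in their pattern. Ccr2 was highest in adult PBS mice and Plac8 was highest at P9. The order of the Ccr2 group means, from the highest, was P200-ELS-PBS, P200-CTR-PBS, P200-CTR-LPS, P200-ELS-LPS, P9-ELS and P9-CTR. For Plac8 it was P9-ELS, P9-CTR, P200-ELS-LPS, P200-CTR-LPS, P200-CTR-PBS and P200-ELS-PBS. In both orders each group overlapped with the next. Per kilobase of exon, Ccr2 was at 0.804 ± 0.353 CPM and Plac8 at 0.155 ± 0.104 in P200-CTR-PBS, whereas Ccr2 was at 0.125 ± 0.113 and Plac8 at 0.661 ± 0.269 in P9-CTR.

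At P9, Ccr2 ranged from 0 to 2.58 CPM in CTR mice (median 0.622) and from 0 to 3.44 CPM in ELS mice (median 0.689). It was listed at 0 in 1 CTR mouse and 3 ELS mice. In P200-CTR-PBS it was 0.712, 4.79, 5.49, 5.67, 6.28, 6.66 and 8.48 CPM, and the lowest of these was P200_1.1_CTR_PBS, the library with few detected genes. In P200-ELS-PBS it was 3.36 CPM at the lowest, 5.68 at the median and 10.7 at the highest. Plac8 ranged from 1.40 to 4.96 CPM in P9-CTR (median 2.69) and from 1.56 to 10.0 CPM in P9-ELS (median 4.4). The 10.0 CPM came from P9_19.3_ELS, the library with the fewest genes. In P200-CTR-PBS Plac8 was between 0 and 1.33 CPM (median 0.556) and in P200-ELS-PBS between 0 and 1.03 CPM (median 0.276), below every P9 mouse of the same rearing.

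**Figure D3:**
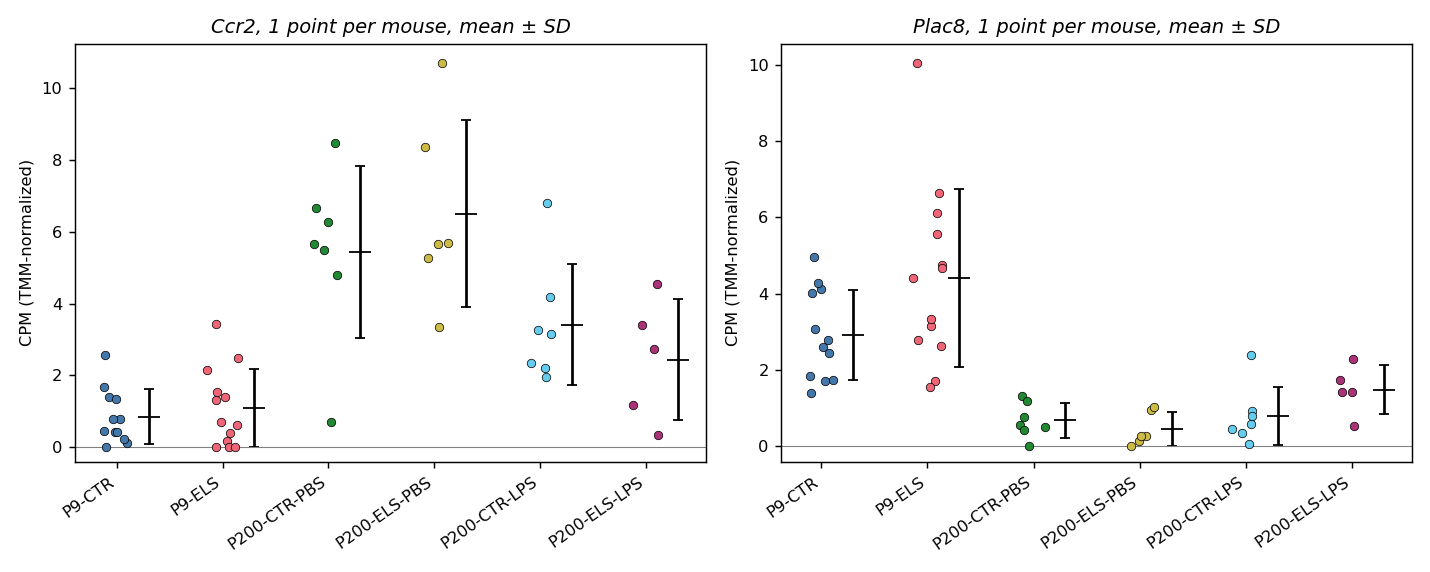
Ccr2 (left) and Plac8 (right) in CPM, with 1 point per mouse in the 6 groups, and mean ± SD beside the points. Ccr2 had group means of 5.44 and 6.51 CPM in the adult PBS groups against 0.847 and 1.09 at P9, and Plac8 had 0.683 and 0.448 against 2.91 and 4.41.

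Both markers were called between P200 PBS mice and P9 mice, in each rearing. In CTR mice, where 26.4% of 16696 tested genes were called, Ccr2 rose from 0.847 ± 0.762 CPM (SD, n = 12) to 5.44 ± 2.39 (n = 7), a log2 fold change of 2.67 (SE 0.633, edgeR adjusted p = 0.000543). Plac8 fell from 2.91 ± 1.18 to 0.683 ± 0.460 CPM, a log2 fold change of -2.07 (SE 0.552, adjusted p = 0.00195), and its groups did not overlap, as was so for 10.5% of tested genes in the lower direction. The Ccr2 groups overlapped through P200_1.1_CTR_PBS, and without this mouse its log2 fold change was 2.86 (adjusted p = 0.000219).

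In ELS mice, where 26.2% of genes were called, Ccr2 rose from 1.09 ± 1.09 CPM (n = 13) to 6.51 ± 2.60 (n = 6), with a log2 fold change of 2.56 (SE 0.633, adjusted p = 0.000925). The lowest adult, at 3.36 CPM, was just under the highest P9 mouse. Plac8 fell from 4.41 ± 2.33 to 0.448 ± 0.438 CPM, a log2 fold change of -3.28 (SE 0.629, adjusted p = 3.01e-05), again without overlap, against 7.03% of genes. The difference between the rearing conditions in these changes was -0.113 (SE 0.91, adjusted p = 0.993) for Ccr2 and -1.21 (SE 0.748, adjusted p = 0.599) for Plac8, so that 0 of 2 markers passed, and 0 at an unadjusted p under 0.05, against 0.0299% of genes called. The likelihood-ratio test of edgeR, limma with voom and DESeq2 also called 0.

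LPS given 3 h before left Ccr2 at lower means and Plac8 at higher means, but neither passed the test in either rearing. In CTR mice Ccr2 was at 1.95, 2.19, 2.36, 3.15, 3.28, 4.18 and 6.79 CPM after LPS, within the range of the PBS mice, and the log2 fold change was -0.67 (95% interval -2.08 to 0.73, adjusted p = 0.62). Plac8 was between 0.0487 and 0.933 CPM in 6 of the LPS mice and at 2.38 CPM in P200_15.2_CTR_LPS, the mouse that also held S100a8 and S100a9. Its log2 fold change was 0.19 (-0.95 to 1.33, adjusted p = 0.892), and -0.418 without this mouse. Thus 0 of 2 markers were called, and 0 had an unadjusted p under 0.05, against 9.62% of all tested genes called, and likelihood-ratio test, voom and DESeq2 called 0 too.

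In ELS mice Ccr2 was at 0.351, 1.17, 2.73, 3.40 and 4.56 CPM after LPS, against 3.36 to 10.7 CPM after PBS, so that 2 of the 5 LPS mice lay within the PBS range. The log2 fold change was -1.41 (95% interval -3.05 to 0.23, adjusted p = 0.309), and the exact two-sided permutation test of the mean log2 CPM gave an unadjusted p of 0.013. Plac8 was at 0.527, 1.42, 1.43, 1.73 and 2.29 CPM after LPS and at 0, 0.141, 0.272, 0.281, 0.961 and 1.03 CPM after PBS. Of the LPS mice 4 of 5 were above every PBS mouse, and the log2 fold change was 1.71 (0.41 to 3.01, adjusted p = 0.0829, exact permutation p = 0.026 unadjusted). By this test 0 of 2 markers were called and Plac8 alone had an unadjusted p under 0.05 (0.0128), against 7.86% of genes called. The likelihood-ratio test (adjusted p = 0.036), voom (0.0368) and DESeq2 (0.0309) each called Plac8. The responses of CTR and ELS mice were not shown to differ: the difference of the log2 fold changes was -0.74 (-2.87 to 1.39, adjusted p = 0.983) for Ccr2 and 1.52 (-0.20 to 3.24, adjusted p = 0.89) for Plac8, neither with an unadjusted p under 0.05. No gene of the 16696 was called there (0.0%), while 980 had an unadjusted p under 0.05.

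Between ELS and CTR mice neither marker passed at either age, and all ranges overlapped. In PBS mice, where 0.156% of genes were called, the log2 fold change was 0.26 for Ccr2 (95% interval -1.19 to 1.71, adjusted p = 0.972) and -0.62 for Plac8 (-1.82 to 0.58, adjusted p = 0.856). In LPS mice, where 0.0% were called, it was -0.48 for Ccr2 (-2.04 to 1.08, adjusted p = 1.0) and 0.90 for Plac8 (-0.33 to 2.13, adjusted p = 1.0). At P9, also with 0.0% called, it was 0.37 for Ccr2 (-0.71 to 1.46, adjusted p = 1.0) and 0.59 for Plac8 (-0.23 to 1.42, adjusted p = 0.966). Neither had an unadjusted p under 0.05 in these comparisons, and the likelihood-ratio test, voom and DESeq2 called 0. The intervals leave room for a change of more than the fold threshold in at least 1 direction in all 6 cases. At P9, by nest (read from the first number of a mouse's name), the mean of Plac8 was between 1.96 and 6.49 CPM over 4 ELS nests and between 1.92 and 3.94 CPM over 5 CTR nests.

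**Figure D4:**
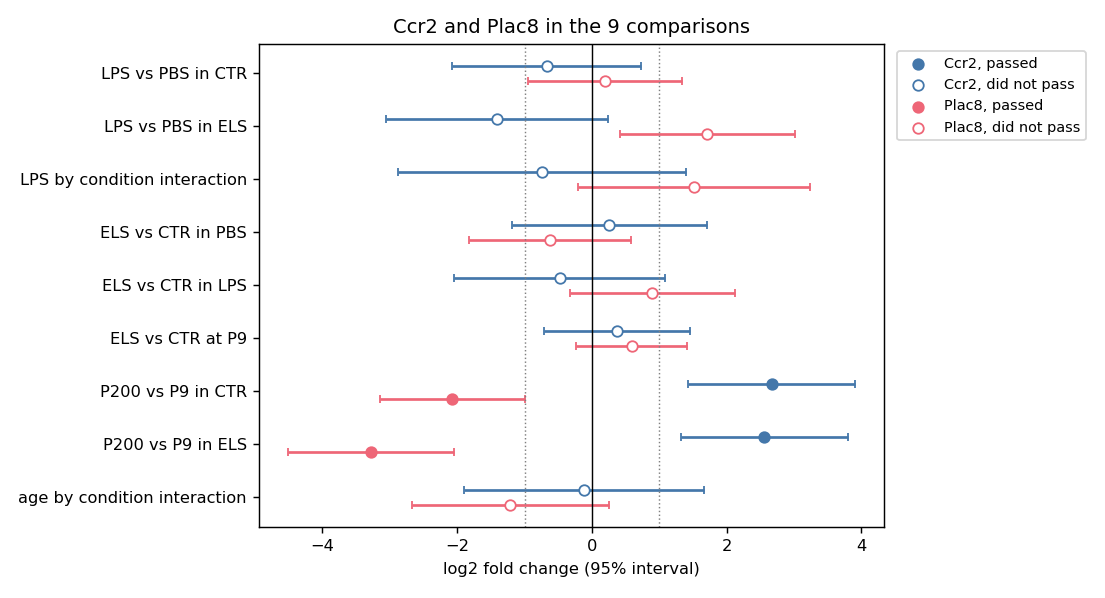
Log2 fold changes of Ccr2 and Plac8 in the 9 comparisons, with bars for the 95% interval and filled points where the test was passed; dotted lines mark the fold threshold of 1. Only the 4 points of P200 against P9 are filled, Ccr2 at 2.67 and 2.56 and Plac8 at -2.07 and -3.28.

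Other genes were read from 5 lists of neutrophil and monocyte markers, of which 20 genes passed the filter. None of the 6 primary granule genes did. Whether the counts of these genes came from neutrophils and monocytes or from microglia was not tested. After LPS, 6 of the 20 rose and 0 fell in CTR mice, and 6 rose and 0 fell in ELS mice. Of all tested genes 9.62% and 7.86% were called in these comparisons, in either direction. Lcn2 and Hp reached 1 CPM in LPS mice alone, so they passed the filter only through mice in which they were high. The numbers that rose and fell were therefore partly set by the filter and are no test of direction. The likelihood-ratio test called 6 and 6 of the 20, voom 4 and 4 and DESeq2 5 and 4. The median log2 fold change over all tested genes was 0.00468 and -0.0352 in these comparisons. Trem1, a receptor that amplifies inflammatory signals in neutrophils and monocytes, rose from 0.0222 ± 0.0589 to 21.2 ± 5.73 CPM in CTR mice (log2 fold change 9.38, SE 1.18, adjusted p = 7.45e-08) and from 0.0147 ± 0.0229 to 24.9 ± 15.9 CPM in ELS mice (10.3, SE 1.35, adjusted p = 2.01e-07). All LPS mice lay above all PBS mice for this gene, unlike for the 10 markers. Mcemp1, a membrane protein of mast cells and neutrophils, rose to 1.96 ± 1.19 CPM in CTR mice, where all 7 PBS mice were at 0 (adjusted p = 3.68e-06), and from 0.117 ± 0.204 to 2.86 ± 2.79 CPM in ELS mice (adjusted p = 0.00223).

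The granule gene Lcn2 (lipocalin-2, which binds bacterial siderophores) rose to 0.112 ± 0.163 CPM in CTR mice (adjusted p = 0.0254) and to 1.1 ± 0.68 CPM in ELS mice (adjusted p = 0.00491). DESeq2 called it in neither (adjusted p = 0.378 and 0.104), and without P200_1.3_CTR_LPS the call in CTR mice was lost (0.0768). Hp rose in ELS mice to 4.4 ± 6.38 CPM (adjusted p = 0.00179), with 15.3 CPM in P200_2.2_ELS_LPS, and was not called by DESeq2 (0.108). Among classical monocyte genes Mgst1 rose in both, to 0.248 ± 0.374 CPM (adjusted p = 0.00541) and to 0.231 ± 0.245 CPM (adjusted p = 0.0124), from 0 in all PBS mice. Fn1 (fibronectin) rose in CTR mice (adjusted p = 0.00151), and Vcan (versican) rose in ELS mice (adjusted p = 0.00498). With an estimated nest correlation in voom, Mgst1 was called in neither rearing (adjusted p = 0.174 and 0.128) and Vcan not in ELS mice (0.0715), which left 0 classical monocyte genes called there. Of the non-classical monocyte genes Itgal, the integrin LFA-1 subunit, rose in CTR mice (5.60, SE 1.24, adjusted p = 0.000756, but 0.0747 with an estimated nest correlation in voom), and 0 of 5 did in ELS mice. Its difference in response between ELS and CTR mice was -7.21 (SE 1.74, adjusted p = 0.209), and it was called by the likelihood-ratio test (-7.22, adjusted p = 0.00664) and DESeq2 (-7.43, 0.00405) and not by voom (-2.54, 0.803). The Itgal level of the ELS mice given PBS rested on P200_11.1_ELS_PBS, with 29 counts against at most 2 in the other 5. Without the 6 libraries with most counts of the sparse markers, 0 of 3 secondary granule genes were called in CTR mice and 1 of 3 in ELS mice, and 0 of 7 classical monocyte genes in ELS mice. That fit called 1499 of 16696 genes in CTR mice and 801 in ELS mice. Only 2 ELS mice given LPS and 5 given PBS were left in it, and the libraries were removed for counts of related markers. A lost call can thus come from the smaller groups or from this choice, which cannot be told apart.

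Ligands that draw these cells also rose. Of 9 tested genes of a list of recruiting ligands and receptors, 5 rose after LPS in CTR mice and 5 rose and 1 fell in ELS mice. Over all tested genes the share called was 9.62% in CTR mice and 7.86% in ELS mice. Ccl12, a ligand of CCR2, rose from 50.8 ± 16.8 to 2842 ± 1270 CPM in CTR mice (adjusted p = 5.97e-17) and from 42.0 ± 13.3 to 3016 ± 1260 CPM in ELS mice (adjusted p = 3.35e-16). The neutrophil chemokine Cxcl2 was at 0 in all 13 PBS mice and reached 2.59 ± 2.50 and 6.43 ± 6.89 CPM with LPS (adjusted p = 9.26e-05 and 6.72e-05). Sall1, a transcription factor of microglia, fell in both, from 302 ± 58.4 to 91.1 ± 14.7 CPM in CTR mice and from 325 ± 39.4 to 80.5 ± 30.4 CPM in ELS mice, as the only called gene of 10 microglia markers. Of lists for other cells in CTR mice, 3 of 6 tested haemoglobin and platelet genes rose. These were Hbb-bs (1.84 ± 4.77 CPM), Hba-a1 (1.35 ± 3.38 CPM) and Hba-a2 (0.752 ± 1.99 CPM). Their SDs were above the means, so that few of the 7 mice held most of these counts. Of 10 border-associated macrophage genes 1 rose and 1 fell, and 1 of 6 endothelial genes rose, against 9.62% of all tested genes called. In ELS mice 0 genes of these 3 lists were called, against 7.86% of all tested genes. The part of these cells in the values of the markers was not tested.

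From P9 to P200, 12 of the 20 tested neutrophil and monocyte genes were called in CTR mice, 2 higher and 10 lower, and 11 in ELS mice, 3 higher and 8 lower. Over all tested genes the share called was 26.4% in CTR mice and 26.2% in ELS mice. Cxcr2, the chemokine receptor that guides neutrophils, fell from 14.2 ± 3.55 to 0.0218 ± 0.0577 CPM in CTR mice (adjusted p = 4.17e-12) and from 16.4 ± 5.72 to 0.176 ± 0.43 CPM in ELS mice (adjusted p = 7.64e-10). Cxcr2 had a count in all 25 P9 mice, whereas Ly6g was at 0 in all of them. Itgal fell in CTR mice from 8.00 ± 3.22 to 0.0102 ± 0.0269 CPM (adjusted p = 7.55e-09), as did Plac8, whereas Adgre4, an adhesion receptor of non-classical monocytes, rose as Ccr2 did, from 0.342 ± 0.378 to 8.60 ± 2.05 CPM (adjusted p = 4.49e-07). Csf3r, the receptor of granulocyte colony-stimulating factor, was between 159 ± 54.9 and 380 ± 57.2 CPM in the 6 group means and made up nearly all of the mature neutrophil list. Of other cell types, 9 of 10 border-associated macrophage genes fell in CTR mice and 7 of 10 in ELS mice, with Mrc1 (the mannose receptor) going from 711 ± 128 to 5.76 ± 2.1 CPM in CTR mice (adjusted p = 2.12e-23). The haemoglobin and platelet list had 4 of 6 tested genes lower in each rearing. The part of these other cells in the changes of Ccr2 and Plac8 was not tested.

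Between ELS and CTR mice, 0 of these 20 genes were called by the quasi-likelihood test in PBS mice, in LPS mice and at P9, while 8, 7 and 3 had an unadjusted p under 0.05. Over all tested genes the share called was 0.156%, 0.0% and 0.0%. The likelihood-ratio test called Mcemp1 and Itgal in PBS mice and Trem1 at P9, DESeq2 called Itgal in PBS mice, and voom called 0. The Itgal difference rests on the 29 counts of P200_11.1_ELS_PBS, against at most 2 in each of the other ELS mice given PBS.

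**Figure D5:**
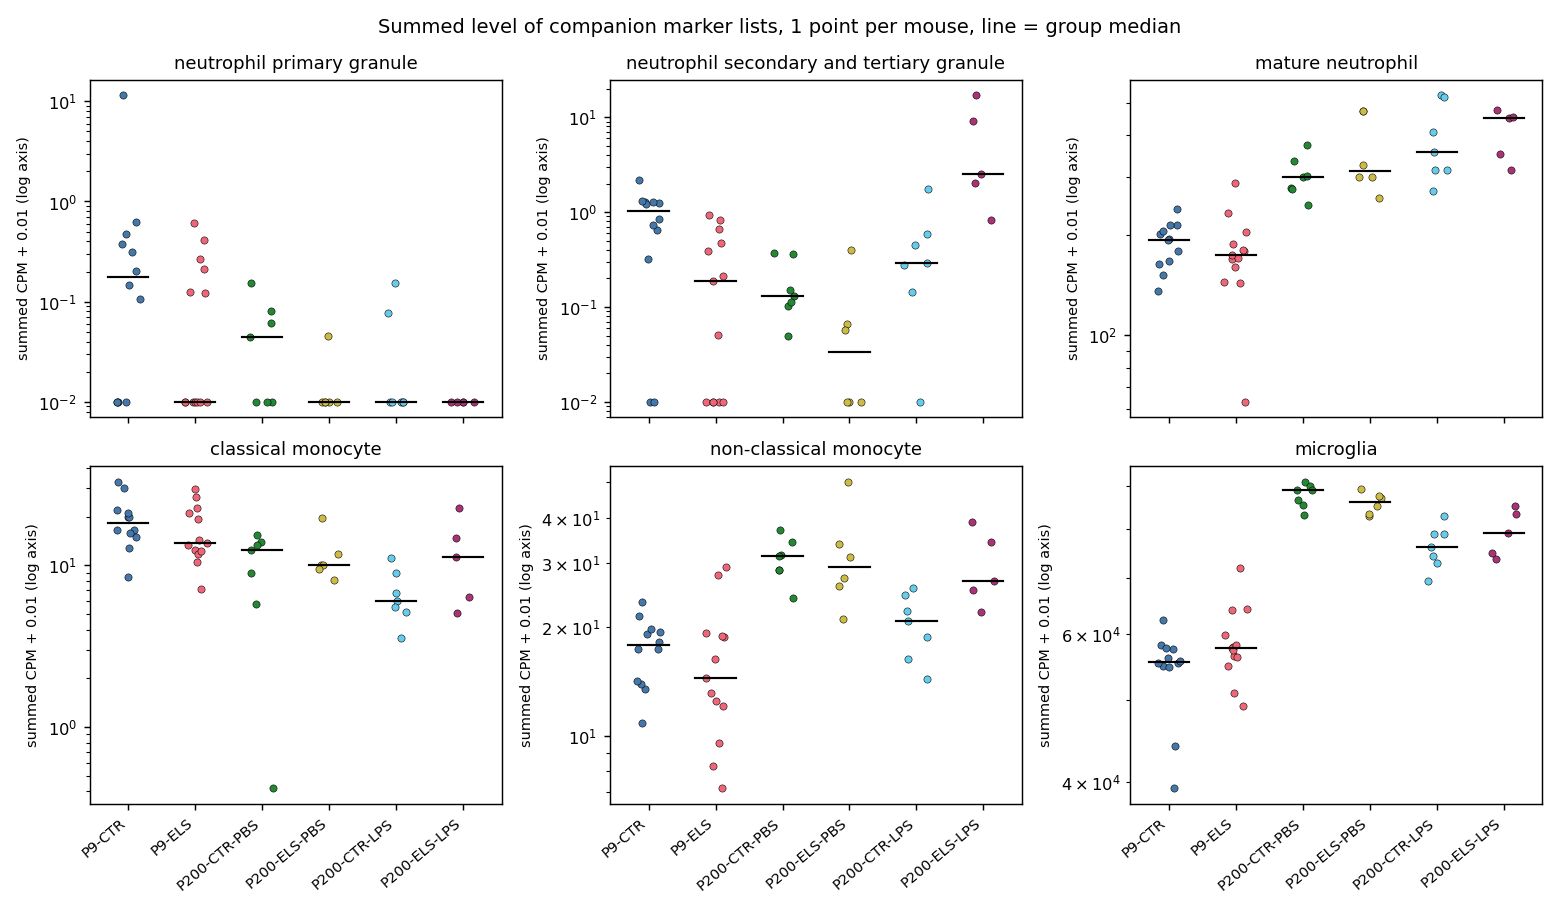
Summed CPM (log axis, with 0.01 added) of 5 neutrophil and monocyte lists and of the microglia list, with 1 point per mouse and a line at the group median. P9_17.2_CTR stands alone at 11.5 CPM in the primary granule panel, P200-ELS-LPS has the highest median of the secondary and tertiary granule panel (2.53 CPM), and the mature neutrophil panel follows Csf3r.

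Across the 50 mice, after the group means were taken away, Ccr2 and Plac8 were weakly related to each other (Spearman rho 0.28, Pearson r 0.25). The genes most like Ccr2 were Atxn3 (rho 0.58, r 0.53), Galnt7 (0.57, 0.58) and Zbtb21 (0.54, 0.54), and those most like Plac8 were Tspo (0.53, 0.59), 1110065P20Rik (0.53, 0.56) and Mylpf (0.52, 0.59). These values describe the 50 libraries, whose depth the genes share.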

How the data were processed

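Libraries were made from poly-A RNA of sorted hippocampal microglia of 50 mice. The authors trimmed the reads (bcl2fastq 2.20, cutadapt 2.10), aligned them with STAR against GRCm39 and obtained unique exonic reads per gene from HTSeq 0.11.0. The deposited values are these raw counts, without normalization. The annotation release and the strand setting are not given in the sources used here, and reads had no molecular identifiers.

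Groups follow the age, condition and treatment in the labels. Counts were scaled by TMM in edgeR 4.0.16 (R 4.3.3). A gene entered the fit when more than 2 mice reached 1 CPM (16696 of 53700). A mean per group was fitted to all 50 mice, the quasi-likelihood test of edgeR was applied to each contrast with Benjamini-Hochberg adjustment over all genes, and a gene was called when its adjusted p was under 0.05 and its log2 fold change exceeded 1 in size. Intervals of fold changes are 95% (normal). Log2 CPM used a prior count of 2. Permutation tests of the difference in mean log2 CPM were two-sided and unadjusted, exact where a group had under 10 mice and otherwise with 100000 resamples (scipy 1.17.1, numpy 2.4.6, pandas 2.3.3, Python 3.11.15). On simulated data for LPS against PBS in CTR mice (16696 genes, 200 changed, log2 fold change 2) the test recovered 136 (68%) with 7 false calls.

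Gene positions, promoters and exons came from the GENCODE vM39 annotation of GRCm39, in which 52610 genes of the tables were found. The text names all 10 markers, of each companion list the called genes with the largest fold changes (at most 3 per list and comparison) and genes at 0 in all mice, and for each tested marker the 3 genes with the highest Spearman correlation. A few other genes are not reported here. Genes named for their counts in single libraries and the comparison of other tools were chosen after values were seen. The markers and lists were chosen with earlier results of these data known.

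Alternatives were edgeR's likelihood-ratio and robust tests, DESeq2 1.42.0, its size factors, other filters, the compared groups alone, the nest (read from the first number of a mouse's name, whose meaning the labels do not give) as block, random effect (limma 3.58.1) or sum, a fold threshold of 0.1, a prior count of 0.5, and each mouse or the 3 libraries with the fewest genes left out. Fits without the libraries that held most counts of the sparse markers were chosen after seeing the data. P-values measure the spread between mice, and mice of 1 nest may not be independent.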

Additional observations from a re-analysis of the deposited data

Results flagged for a closer look

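In 16 of 26 combinations of a marker and an adult group with any count, 1 mouse stood apart from the others of its group (Dixon's criterion). Chance alone flags about 1 in 20 groups of normally distributed values, a rate that does not hold for such sparse counts. For most of the 16 the other mice were all at 0, so that a single count is enough, and 5 of the 16 rest on 1 count and 9 on more than 3. P200_17.3_ELS_LPS stood apart for Ngp (4.34 CPM), S100a8 (2.58 CPM), Camp (1.15 CPM) and Ltf (0.824 CPM). P200_15.2_CTR_LPS did so for Plac8 (2.38 CPM, with the others at up to 0.933), S100a8 (1.08 CPM) and S100a9 (0.765 CPM).

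Ly6c2 stood apart in P200_11.1_ELS_PBS (0.465 CPM) and in P200_2.2_ELS_LPS (0.148 CPM), Ngp in P200_5.2_CTR_PBS (0.272 CPM) and S100a8 in P200_8.1_CTR_PBS (0.213 CPM). At 1 count each these were Ngp in P200_8.2_CTR_LPS (0.0563 CPM), Camp in P200_5.1_CTR_PBS (0.0397 CPM) and P200_1.3_CTR_LPS (0.0262 CPM), and Cd177 in P200_15.1_CTR_PBS (0.0713 CPM) and P200_18.3_CTR_LPS (0.0729 CPM).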

How the results depend on the processing

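The number of markers called equalled the reported one in 105 of 113 values from other tools, filters, designs or sets of libraries, and in 447 of 450 that left out 1 mouse. Between LPS and PBS in ELS mice, 1 marker (Plac8) was called with the likelihood-ratio test, with voom, which took nests as random effects (log2 fold change 2.32), with DESeq2 (1.76) and without the 3 libraries with the fewest genes (1.71), and 3 others were called with no filter on low counts. When each mouse was left out the count was between 0 and 1, and it was 1 without P200_1.1_CTR_PBS, P200_4.1_ELS_PBS or P200_11.1_ELS_PBS, with the log2 fold change of Plac8 between 1.46 and 2.12 and its adjusted p between 0.0415 and 0.181. From P9 to P200, 3 markers in place of 2 were called in CTR mice with no filter, and 4 in ELS mice, or 3 when P200_11.1_ELS_PBS was also left out. The causes were not tested.

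Directions turned only for changes that were not called: Ccr2 between ELS and CTR at P9 (-0.324 with voom), Ccr2 in the interaction of age and condition (0.665 with voom, and between -0.4 and 0.162 when each mouse was left out), and Plac8 between LPS and PBS in CTR mice (-0.0279 without the 3 libraries with the fewest genes, -0.423 without the 6 libraries with most sparse counts, and between -0.418 and 0.432 when each mouse was left out). With a prior count of 0.5, the difference in mean log2 CPM moved for Camp between ELS and CTR in PBS mice (1.95 in place of 0.946), for Camp from P9 to P200 in ELS mice (2.15 in place of 1.02) and for S100a8 there (-0.686 in place of -0.291). Of the companion list counts 953 were within 1.5 times the reported ones, 23 were higher and 34 lower.

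With the nest as replicate block in P200 mice, 0 markers were called in each of the 3 comparisons that involve LPS, as without the block, and 1235 genes in place of 1498 were called between LPS and PBS in CTR mice and 1214 in place of 1272 in ELS mice. In both, 0 classical monocyte genes were then called, in place of 2. The deviations of PBS and LPS mice of the same nest had correlations between -0.0411 and 0.0841 in 10 nests, none over 0.1, so that the numbers were not taken to pair the samples. Counts near 0 limit the 8 sparse markers: 3 counts, the limit set for a count of 0, correspond to 0.0786 to 0.538 CPM in a single library. A 0 there does not exclude levels below this limit.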
